A study of Homo sapiens with 2 samples.

Results

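The GNB1 locus, on the minus strand of chromosome 1, held 45 of the 23412 regions listed for RNA bound by TARBP2, 44 of them within the gene and 1 upstream of it. They were taken as all minus-strand regions that overlap chr1:1716725-1828500 (hg19), an interval of 111.8 kb that holds GNB1 and a stretch upstream of its start. The locus was chosen by the number of regions that lay there, so this number is a description and carries no test. The cells were MDA-LM2, a lung-metastatic derivative of a human breast cancer line. They were transfected with a vector for myc-tagged TARBP2, and 48 hours later RNA cross-linked to the tagged protein by UV light was recovered with an anti-myc antibody and sequenced (HITS-CLIP). The study held 1 group of 2 replicates and the list is for the group as a whole. It has no column per replicate, no control library was analysed here, and the score of each region is 1, so neither a replicate error nor the depth behind a region is known. Since the tagged protein came from a vector, the regions describe cells with added TARBP2, and how much RNA the gene gave in these cells was not measured here.

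GNB1 encodes a beta subunit of heterotrimeric G proteins. The beta subunit folds into a propeller of WD repeats and stays paired with a gamma subunit. When a receptor in the membrane is activated the beta-gamma pair parts from the alpha subunit and acts on ion channels, phospholipases and other enzymes. TARBP2 binds double-stranded RNA and is a partner of Dicer, which cuts microRNA precursors. Introns are present in the primary transcript and are removed by splicing in the nucleus, so a region in an intron marks RNA from before or during splicing, or intron RNA after it.

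GNB1 is annotated on GRCh38 in GENCODE 29, and the transcript ENST00000378609 served as its reference model. It runs from 1785286 to 1891056 on chromosome 1, has 12 exons that add up to 3132 nt, and spans 105.8 kb, of which the exons are 2.96%. An hg19 annotation was not used here. The model was placed against the regions by 1 constant shift of 68561 nt, set so that the 3′ end of the transcript fell on 1716725, the first position of the interval. Distances between regions and exons below rest on that shift, while positions of regions are those of the hg19 list. A single anchor was used, so whether the shift is the same along the gene was not tested.

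None of the 45 regions touched an exon of the reference transcript. Of these regions, 44 lay wholly within an intron and 1 lay upstream of the gene. None touched an exon of any of the 10 annotated GNB1 transcripts either, whose exons together cover 6417 nt. The exons of the reference transcript are only 2.96% of the gene. Among 401 shifts, changed by up to 2000 nt either way after seeing the data, the median count of regions touching them was 1. The count was 0 in 84 of these shifts. The share of the whole list that touches exons is not given here. The closest approach was at exon 8, a coding exon of 67 nt. The region chr1:1724275-1724677 was separated by 6 nt from the end of that exon, in intron 8. A gap this small depends on the shift: with a shift larger by 10 nt or by 100 nt, 1 region overlapped an exon, and with one smaller by 100 nt 0 did. Around the shift used, the count of 0 held only for changes from -250 to 0 nt, so this shift lies at the edge of that range. The sequence of exon 8 is shown to place this region in the transcript. It was read from the GENCODE 29 transcript on GRCh38, minus strand, 5′ to 3′, and the 10 bases in capitals are the end of the exon that faces the region. Exon 8 lies at chr1:1793245-1793311.
GNB1 exon 8: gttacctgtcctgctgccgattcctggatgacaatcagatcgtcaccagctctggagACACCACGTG

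Other exons lay farther from a region. The next closest was exon 7, at 257 nt, and exon 6 was 753 nt away. The last exon, 1768 nt of 3′ untranslated sequence, was 5782 nt from the closest region. Exon 11, which holds the stop codon, was 5398 nt away, exon 10 was 3566 nt away and exon 9 was 2239 nt away. Exon 3, where translation starts, was 721 nt from a region, and exon 1 was 962 nt from one. The final 7550 nt of the gene, which include the long untranslated exon of the mature messenger RNA, held 0 regions.

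**Figure D1:**
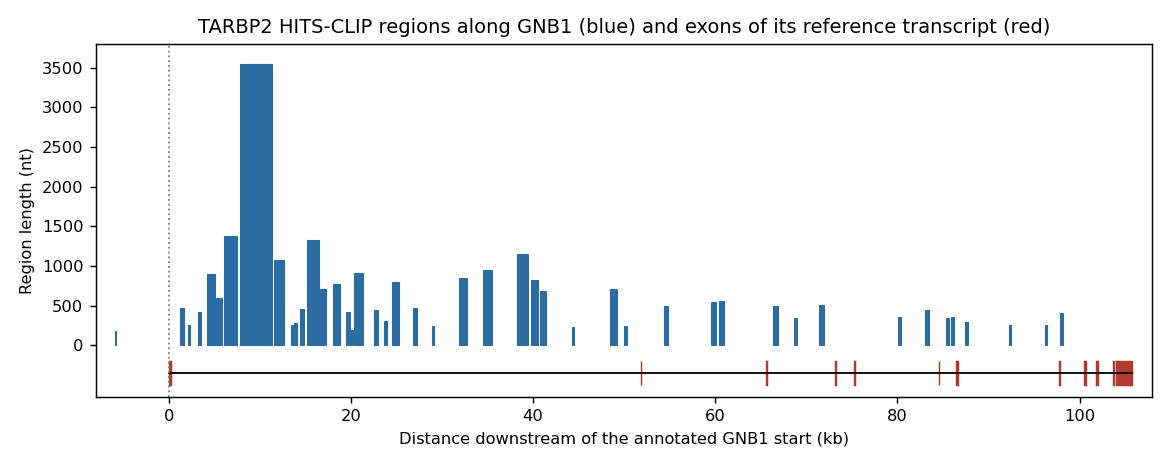
TARBP2 regions along GNB1. Each blue bar is 1 of the 45 regions, drawn to scale along the horizontal axis (kb downstream of the annotated start) and with its length in nt as height, and red marks below are the 12 exons of the reference transcript. Long and crowded regions stand within the first part of intron 1, 1 region lies upstream of the start, and no blue bar stands over a red mark.

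Intron 1 held most of the regions. It is 51.6 kb long, 48.8% of the gene, and it contained 30 of the 44 regions in the gene (68.2%) and 79.4% of the nucleotides that they covered. Regions covered 42.4% of intron 1, against 11.1% of introns 2 to 11 together, which are 51.1 kb long and held 14 regions. Regions per kb were 0.582 in intron 1 and 0.274 in the later introns. These are counts of 1 list and have no replicate error.

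The later introns held 0 to 3 regions each. Intron 2 (13.7 kb) held 3 regions that covered 11.6% of it, intron 3 (7.5 kb) held 3 that covered 18.0%, and intron 7 (11.1 kb) held 3 that covered 7.27%. Intron 5 (9.2 kb) held 2 regions. Intron 6 is short, at 1.9 kb, and its 2 regions of 344 and 356 nt covered 37.0% of it, a share close to that of intron 1. Intron 8 (2.6 kb) held the 1 region next to exon 8. Introns 4, 9, 10 and 11, of 1974, 1125, 1615 and 268 nt, held 0 regions each, so the 3 introns closest to the end of the gene and the short intron 4 were empty. All of these are short beside the 0.274 regions per kb of the later introns together, and whether they differ from the other later introns was not tested.

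**Figure D2:**
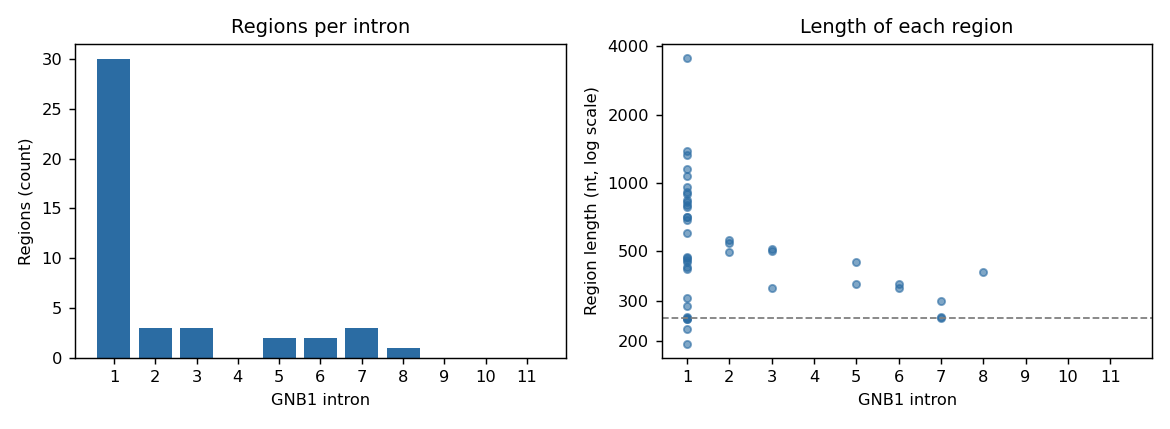
Regions in the 11 introns of the reference transcript. The left panel gives the number of regions in each intron and the right panel the length of each region in nt on a log scale, with a dashed line at 253 nt, the median of all other regions in the list. Intron 1 has 30 regions of 195 to 3548 nt, and the 14 regions of the later introns are 253 to 557 nt long.

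The covered share was higher on the start side of intron 1 than on its end side. It was 39.1% in the first 5 kb of the gene, 85.7% from 5 to 10 kb, and 67.7%, 64.8% and 48.0% in the next 3 bins of 5 kb. From 25 to 45 kb the bins of 5 kb held between 19.7% and 37.2%. From 45 kb to the end of the gene no bin was above 19.98%, and the bin from 75 to 80 kb held 0 covered nucleotides, as did everything beyond 100 kb. In bins of 10 kb the highest value was 66.2%, from 10 to 20 kb.

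**Figure D3:**
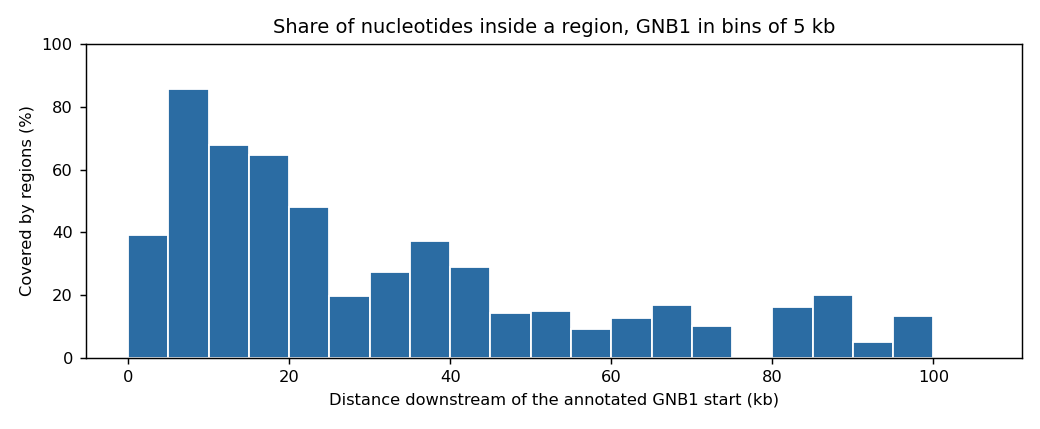
Share of nucleotides inside a TARBP2 region, in bins of 5 kb from the annotated GNB1 start to the end of the gene (the final bin is shorter). The highest bar is 85.7% at 5 to 10 kb, bars beyond 45 kb are at or below 19.98%, and the bins at 75 to 80 kb and beyond 100 kb are at 0.

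Much of the covered length was in 1 crowded stretch. Between 1.2 and 21.3 kb downstream of the start, 17 regions followed each other with gaps of at most 1000 nt, at chr1:1801194-1821296. They covered 69.5% of these 20.1 kb and made up 50.4% of all covered nucleotides at the locus. In the whole list 2 same-strand runs joined by such gaps had at least 17 regions, this one and a run of 23 regions on the plus strand of chromosome 1 at chr1:228751307-228776834. The cutoff of 17 is the size of the GNB1 run, and the locus was chosen by its number of regions. Runs of 16 and 15 regions, both on the minus strand of chromosome X, came next. Elsewhere in the gene 27 regions covered 15.8% of 85.7 kb. At this gap the 45 regions formed 22 runs, and 16 of these were single regions.

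The longest regions lay inside that stretch. The longest of all, at chr1:1811183-1814730, was 3548 nt and made up 12.8% of the covered nucleotides. It was the longest minus-strand region on chromosome 1 and ranked 18 among all 23412 regions by length. It began 7765 nt downstream of the start. Next in length were its neighbour upstream, chr1:1815034-1816411 (1378 nt), and chr1:1806025-1807351 (1327 nt). A region of 1075 nt, chr1:1809858-1810932, followed the longest one after a gap of 250 nt. The only other region above 1000 nt was chr1:1783069-1784214 (1146 nt), in a group of 3 regions that covered 83.4% of 3.2 kb about 38.3 kb downstream of the start. Short regions lay among the long ones: the stretch also held regions of 195, 252 and 255 nt.

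The GNB1 regions were longer than most regions of the list. They ranged from 185 to 3548 nt, and their median length was 467 nt (quartiles 309 and 778 nt). For the other 23367 regions the median was 253 nt (quartiles 248 and 373 nt). In the 9 other same-strand domains of at least 25 regions, described below, the median was 382 to 751 nt, a range that includes GNB1. Above 500 nt were 19 GNB1 regions (42.2%), against 13.9% of the others, and above 1000 nt were 5 (11.1%), against 2.22%. Within the gene the median was 644 nt in intron 1 and 379.5 nt in the later introns, where the longest region was 557 nt. Each name in the list starts with merge. Whether a long region stands for several stretches joined before deposit was not tested.

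The single most common region length of the list was rare at GNB1. It was found in 2 of 45 regions (4.44%), at chr1:1793345-1793593 and chr1:1772221-1772469, both in intron 1 and outside the crowded stretch. Among the other 14206 minus-strand regions 27.2% had this length. Lengths were matched to the nucleotide, so GNB1 regions of 252, 253 and 255 nt were not counted. In the 9 other same-strand domains of at least 25 regions, described below, the share ranged from 0 to 11.5%.

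Gaps between neighbouring regions were 102 to 8139 nt wide, and the median gap was 839 nt (quartiles 290.5 and 2642.25 nt). Of the 44 gaps, 23 were under 1000 nt. The median gap was 602 nt in intron 1 and 2476 nt in the later introns. The smallest gap separated chr1:1805214-1805922 from the region of 1327 nt in the crowded stretch. The widest lay between chr1:1750560-1751070 in intron 3 and chr1:1742065-1742420 in intron 5, and it spanned exons 4 and 5 and all of intron 4. The next widest was the gap of 6951 nt between the first region in the gene and the 1 upstream of it, which held the start itself and exon 1.

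The numbers in the region names, which rise with chromosome position and so fall in the direction of GNB1 transcription, ran from 5104 to 5178 at GNB1. Of these 75 numbers, 45 (60.0%) were among the regions analysed here, against 15.1% over chromosomes 1 to 22 and X. In the 9 other same-strand domains of at least 25 regions, described below, the share ranged from 47.6 to 89.2%. The locus was chosen by its number of regions, which also sets this share. In the crowded stretch 17 of 19 numbers were listed (89.5%), and downstream of it 27 of 53 (50.9%). Why the other 30 numbers were not listed is not stated by the labels.

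The start of the gene was itself free of regions. The first region within the gene, chr1:1820830-1821296 (467 nt), began 1199 nt downstream of the start. The distances above are counted from the start of the reference transcript, which lies slightly downstream of the RefSeq start. The 250 bases before the RefSeq start of GNB1 are printed to show the sequence next to the crowded end of the gene. This window also holds the most upstream GENCODE start of GNB1, at 1891117. It holds the start of GNB1-DT too, at 1891180, a noncoding gene on the plus strand described below. The 250 bases are thus shared with that gene. They lie at chr1:1891088-1891337 on GRCh38.p14, minus strand, and every CG in them is in capitals.
GNB1 promoter: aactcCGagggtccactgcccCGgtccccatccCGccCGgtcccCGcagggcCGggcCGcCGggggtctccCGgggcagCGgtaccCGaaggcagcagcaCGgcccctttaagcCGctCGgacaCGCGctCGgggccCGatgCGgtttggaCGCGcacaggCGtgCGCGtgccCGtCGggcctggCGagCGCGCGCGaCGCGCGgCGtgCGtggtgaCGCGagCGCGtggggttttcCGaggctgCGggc
CG occurs 42 times in this window, against a median of 11 over the same window of 35116 RefSeq genes, and 1.38% of these have at least as many. The letters TATAAA, searched on both strands, occur 0 times, and 10.7% of the windows hold them. These are descriptions of the sequence at the start, and no region of the list lay over it.

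Upstream of the gene there was 1 region, chr1:1828248-1828432. At 185 nt it was the shortest of the 45. Its near end lay 5753 nt from the start of the reference transcript and 5692 nt from the most upstream start of any GNB1 transcript. A noncoding gene on the plus strand, GNB1-DT in RefSeq (AL109917.1 in GENCODE 29), begins next to the GNB1 start and points away from it. The upstream region lay 4150 nt beyond the annotated end of AL109917.1, so it was inside neither gene model.

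On the plus strand the interval held 0 regions. The whole of chromosome 1 held 899 plus-strand regions among its 2259. The interval is only 111.8 kb of that chromosome and was chosen by its minus-strand regions. Its count of 0 is therefore a description, and a lack of plus-strand regions was not tested. The nearest plus-strand regions lay outside, at chr1:1829015-1829258, 582 nt beyond the upstream minus-strand region, and at chr1:1611163-1611710, 112564 nt from the 3′-most GNB1 region. The first of these pointed away from GNB1 and was 4917 nt beyond the end of AL109917.1. Between the names of these 2 plus-strand regions 10 numbers were missing from the list, and where those lay is not known.

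The nearest minus-strand regions outside the locus lay at unequal distances. Beyond the 3′ end of GNB1 the next minus-strand region was chr1:1703414-1704021 (608 nt), 20253 nt from the last GNB1 region. With the same shift it lay inside NADK, the gene for NAD kinase and the next gene downstream on the same strand. On the upstream side the next minus-strand region, chr1:1988192-1988440, was 159759 nt away. CALML6, TMEM52 and CFAP74, the next protein-coding genes upstream in the annotation, lay in that gap with the same shift. TMEM52 and CFAP74 are on the minus strand like GNB1, and CFAP74 is 81887 nt long.

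Among the 10 same-strand domains of at least 25 regions, formed by joining regions at most 10 kb apart, the GNB1 domain had the widest span (104.2 kb), the others spanning 38.7 to 84.5 kb. Its 45 regions were second in number to the 46 of a domain on the minus strand of chromosome X, which spanned 63.7 kb. Its covered share of 26.6% ranked 5, within the 16.8 to 58.4% of the other domains, and its median region length of 467 nt lay within their range of 382 to 751 nt. The GNB1 domain was among 4 of the 10 with 0 regions on the opposite strand. It was the most uneven toward its 5′ side: 76.1% of its covered nucleotides lay on the 5′ side of its midpoint, against 36.1 to 72.9% in the other 9. The closest was the domain on the minus strand of chromosome 12 at chr12:57739222-57823712, with 72.9%. With 1 value per domain these differences have no test.

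**Figure D4:**
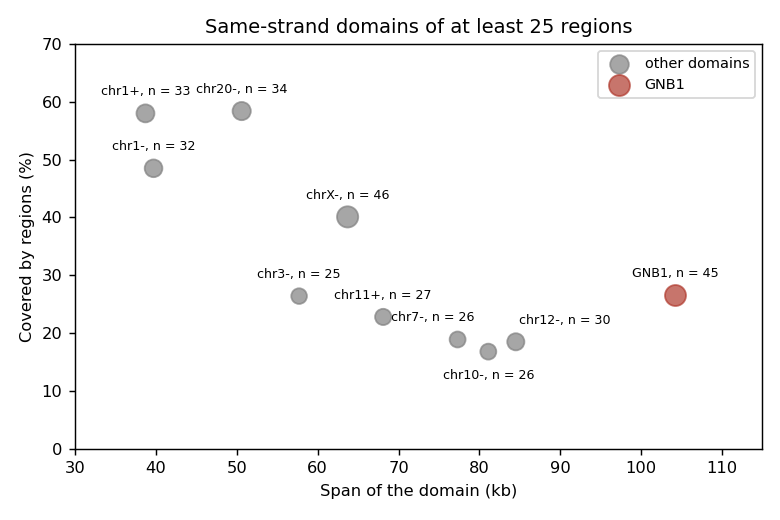
The 10 same-strand domains of at least 25 regions, by span in kb (horizontal axis) and share of nucleotides covered (vertical axis), with point area growing with the number of regions. GNB1 (red) is farthest to the right at 104.2 kb with a covered share of 26.6%, and the domains spanning 38.7 to 50.6 kb have the highest shares, 48.5 to 58.4%.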

How the data were processed

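TARBP2-bound RNA was measured by HITS-CLIP in 2 replicates of MDA-LM2 cells. The submitters' processing notes name Bowtie and hg19. How regions were called and filtered, and how replicates were combined, is not given in the sources used. The authors deposited 1 list of stranded regions with 0-based starts, printed here 1-based. The deposited score is 1 in each region and was not used. The labels do not state if the replicates were separate cultures.

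Regions were counted and measured in Python 3.11.15 (numpy 2.4.6, pandas 2.3.3, scipy 1.17.1, matplotlib 3.10.9). Exons were those of GENCODE 29, moved by 1 constant, and a region touched an exon with an overlap of at least 1 nt. Domains joined same-strand regions at most 10 kb apart. Overlap, coverage and joining were checked on simulated intervals. No test across samples was possible with 1 list. Regions named were the 3 longest, the first and last, those nearest exons, those upstream and those beside the widest gap. Other regions, and the runs joined at gaps of 1000 nt, were named after their values were seen. The locus, its members and the comparisons were chosen with earlier results of these data known. Region counts for other G protein subunit genes had been planned and were not run, since hg19 gene positions were not used here.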

Additional observations from a re-analysis of the deposited data

How the results depend on the processing

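Of 20 alternative settings, 12 kept a count within 1.5 times or a share within its 95% binomial interval. That interval treats nucleotides as independent though they lie in 45 regions, so it measures no spread between replicates. Some of the 12 were fixed in advance. With 0 regions overlapping an exon by 1 nt, asking for 50 nt or a midpoint in an exon also gives 0. Joining within 20 kb had to keep 45 regions, as the closest minus-strand region outside was 20253 nt away. The number of regions at GNB1 was 30 to 44 in its alternative settings. The covered share moved from 24.8% to 26.04% over the gene body alone and to 24.4% without regions of the most common length. The highest share in a bin was 85.7% with bins of 5 kb and 64.3% with bins of 20 kb. Regions touching an exon of the reference transcript went from 0 to 1 with a shift larger by 100 nt, and already with one larger by 10 nt. They went to at most 4 when the shift was changed by up to 2000 nt, an alternative chosen after seeing the data. With the exons of all transcripts this last count was at most 6. Domains of at least 25 regions went from 10 to 5 when joined within 5 kb and to 25 within 20 kb, by construction of the joining. Within 5 kb the domain of the longest GNB1 region kept 33 of 45 regions. The span of the GNB1 domain, its 5′ share and their ranks were compared only with joining within 10 kb. The difference in median length from the rest was 214 nt, and 195 nt without regions of the most common length. No paired analysis was possible because the single list has no replicate columns, which also kept a replicate from being left out. The list gives no depth, so regions could not be weighed by it.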
